A study of Mus musculus with 15 samples.

Results

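The 45 genes described here encode kinases, phosphatases and transcription factors of the signalling routes through which synaptic activity alters neurons. They cover calcium/calmodulin kinases, the cAMP and protein kinase A (PKA) pathway, protein kinase C (PKC), the CREB family, MAP kinases, Cdk5, Pak and Rac, phosphatases, and Akt with Gsk3b. The list was set by gene name, and a gene was represented by its brightest probe on average across the 15 arrays. All 45 listed genes were found among the 26117 genes measured. Male mice of the inbred strain C57BL/6J were used, and hippocampal total RNA was hybridised to 15 one-colour Agilent arrays, with 5 mice in each of 3 groups. Mice of the E1 group were taken 1 h after the first extinction trial, in which they were put back, without shock, into a box where they had earlier received a foot-shock. Mice of the ELF group were taken 1 h after trial 5, the trial at which freezing had declined, with trials 24 h apart. Control mice are called naive in the sample names, while the design text describes exposure to the box without conditioning, and both descriptions are kept. The age of the mice is not given in the labels.

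In hippocampal neurons, calcium entering through glutamate receptors binds calmodulin and activates CaM kinases, calcineurin and certain adenylyl cyclases. Cyclic AMP releases the catalytic subunits of PKA from their regulatory subunits, and PKA, CaM kinases and kinases downstream of ERK phosphorylate the transcription factor CREB. These proteins are known for their part in long-term potentiation and in the storage of fear and extinction memories. They are controlled mainly by phosphorylation, which an RNA array does not measure.

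The question put to these arrays was whether RNA of these signalling genes differed between the groups. No member passed the test chosen as the main one in any comparison. With limma fitted to all genes and arrays and a Benjamini-Hochberg adjusted p under 0.05 as the threshold, 0 of 45 members were called between E1 and control, against 0.188% of all 26117 genes. Between ELF and control 0 of 45 were called, against 2.1% of all genes. Between ELF and E1 0 of 45 were called, against 0.00766% of all genes. An unadjusted p under 0.05 was reached by 4 members for E1 against control (8.89%, with 13.1% of all genes). For ELF against control 7 members reached it (15.6%, with 23% of all genes), and for ELF against E1 also 7 (15.6%, with 9.64% of all genes). The last 7 include Camk2a, whose probe was saturated on every array, so 6 can be read. Deviations of E1 and control arrays with the same replicate number correlated by 0.14 to 0.30, and whether the numbers pair the arrays is not known. A limma fit of these groups alone with the number as a block was added after seeing the data. It called 2 members, Atf4 and Ppp1r1b, with 12.1% of all genes.

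Values are log2 intensities relative to the 75th percentile of the same array, so that 0 is that percentile and a difference of 1 is a factor of 2. They compare a probe between arrays and not genes with each other. The median difference over the 45 members was 0.04 between E1 and control, the same to 2 decimals as over all genes. It was -0.03 between ELF and control, where the median over all genes was 0.10, and -0.08 between ELF and E1, where it was 0.05 over all genes. Without the array ELF 2, described further on, these medians were -0.0069 against 0.04 and -0.06 against -0.01. With slide as a fixed block the members lay above all genes, by 0.21 for ELF against control and by 0.16 for ELF against E1. Between E1 and control 30 members were higher and 15 lower, between ELF and control 20 and 25, and between ELF and E1 18 and 27. The 95% interval of a member's difference reached between 0.14 and 0.63 to each side, with a median of 0.25. For 38 members the interval of the E1 difference from control lay within 0.5 to each side of 0, and for all 45 within 1. For ELF against control 28 members had intervals within 0.5 and 44 within 1. The member outside was Gsk3b, described with the array ELF 2.

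**Figure D1:**
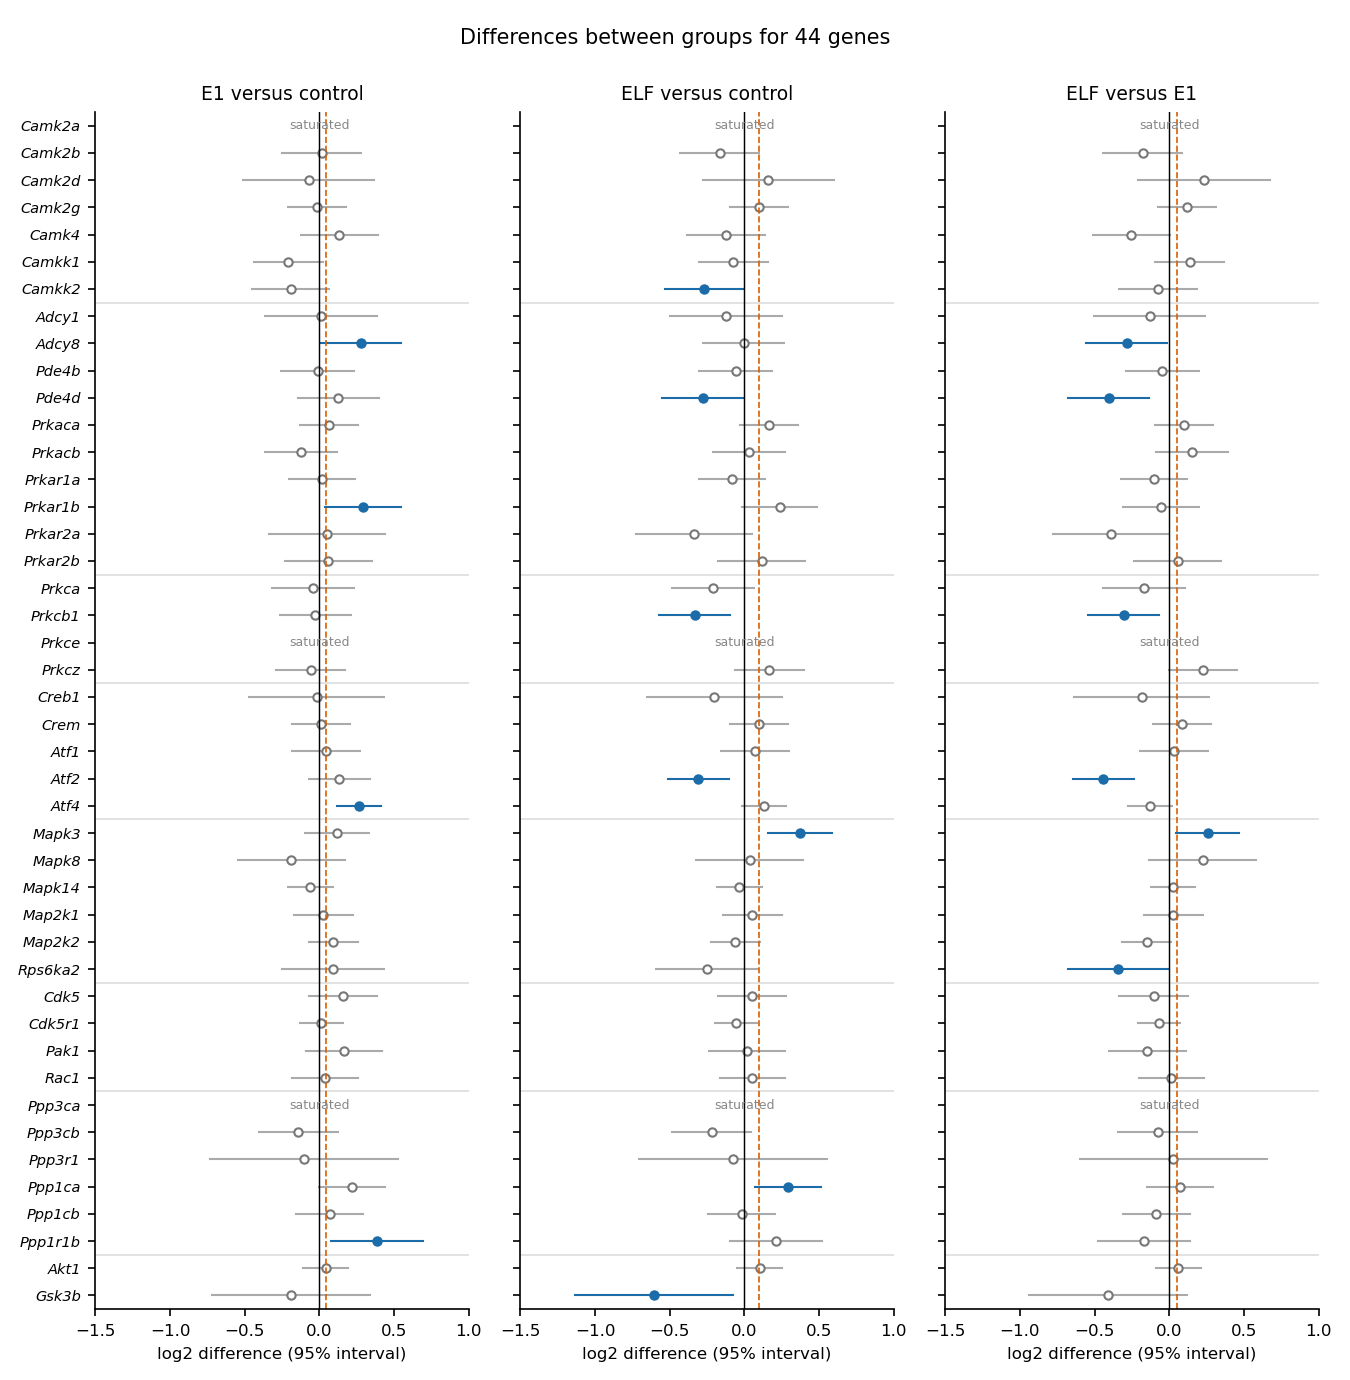
The log2 difference between groups is plotted on the x axis for each of 44 genes, with its 95% interval from limma, in the order of the roles described in the text. Filled blue points have an unadjusted p under 0.05, the orange dashed line is the median of all genes, and "saturated" replaces a gene whose probe was saturated on every array of at least 1 group. Most points lie within 0.25 of 0, and no gene had an adjusted p under 0.05.

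Markers of the labelled tissue were present: all 5 neuronal and all 5 measured hippocampal neuron markers were well above background on all 15 arrays. The tissue was not sorted, and fewer cells of a type and less RNA per cell cannot be told apart. Per array, 83.5% to 97.2% of spots exceeded background clearly, and the 75th percentile lay at an intensity between 1445 and 2929. Of 8 endothelial markers, 2 fell between control and E1 and 6 fell between control and ELF, and their summed level, in units of the 75th percentile, ran from 8.34 to 15.5 in controls, from 4.83 to 7.42 in E1 and from 4.78 to 6.39 in ELF. The part of these cells in the members' differences was not tested. Slides and groups overlapped little. Of the controls 4 were on slide 1 and the fifth was on slide 2 beside 3 E1 arrays. The remaining 2 E1 arrays shared slide 3 with 2 from ELF, whose other 3 filled slide 4. ELF and control arrays shared no slide. A fit with slide as a fixed block therefore compares ELF with E1 on slide 3 only. It reaches control through slide 2, where control 5 is the only control. The arrays on slides 1 and 4 do not enter its differences. Among the ELF arrays 1, ELF 2, stood apart, and values without it are given beside the members it moved most. It lay outside the range of the rest of its group for 32 members and 70.9% of all genes. In E1 the array E1 5 did so for 34 members and 59.4% of all genes.

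All 45 probes were well above background on all 15 arrays, and 38 were saturated on none. For the others the scanner's ceiling limits what can be read. Camk2a and Ppp3ca were saturated on all 15 arrays, Prkce on 13, Camk2b on 9, Camkk1 on 4, Ppp1cb on 3 and Cdk5r1 on 1. No difference is given for Camk2a, Ppp3ca and Prkce; for Prkce all 5 control arrays and all 5 ELF arrays were saturated.

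The 7 calcium/calmodulin kinases hold the 4 CaMKII subunits, Camk4, a nuclear kinase that phosphorylates CREB, and the upstream kinases Camkk1 and Camkk2. Camk2a, which encodes the alpha subunit of CaMKII, gave recorded intensities between 57426 and 62332 on all arrays, at the saturation limit. Relative to the 75th percentile this was between 4.61 and 5.11 in controls, between 4.66 and 5.42 in E1 and between 4.31 and 4.84 in ELF, and these values follow the percentile of each array rather than the gene. Its other probe, which was dim and not saturated, differed by 0.06 between E1 and control (SE 0.14, limma adjusted p 0.906 over all probes) and by -0.09 between ELF and control (SE 0.14, adjusted p 0.738).

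Camk2b, the beta subunit, read 4.87, 4.86, 4.87, 5.07 and 4.91 in the controls, 4.66, 4.73, 4.94, 5.12 and 5.19 in E1, and 4.68, 4.89, 5.05, 4.57 and 4.56 in ELF. It was saturated on 2 control, 3 E1 and 4 ELF arrays, and the groups overlapped. The difference was 0.01 between E1 and control (SE 0.12, limma adjusted p 0.977), a sign that turned under other normalizations, and -0.17 between ELF and control (SE 0.12, adjusted p 0.43). Camk2d, Camk2g, Camk4, Camkk1 and Camkk2 differed from control by between -0.21 and 0.13 in E1 and by between -0.27 and 0.16 in ELF. The lowest of these in ELF was Camkk2 at -0.27 (SE 0.12, limma adjusted p 0.204). Its second probe went the other way, at 0.60 to 0.85 in controls. On that probe ELF 3 read 0.65, and all other ELF arrays lay above every control, at 0.86 to 1.02.

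The 10 genes of the cAMP and PKA pathway are the calcium-stimulated adenylyl cyclases Adcy1 and Adcy8, the phosphodiesterases Pde4b and Pde4d, which break cAMP down, the catalytic subunits Prkaca and Prkacb, and 4 regulatory subunits. Adcy8 was higher in E1 than in control by 0.28 and lower in ELF than in E1 by a like amount (-0.29; SE 0.13 each, limma adjusted p 0.362 and 0.502). The groups overlapped in both comparisons. On slide 2 alone E1 differed from control by 0.24, and on slide 3 alone ELF differed from E1 by 0.06, with the sign turned. Prkaca, the alpha catalytic subunit, read 3.76, 3.83, 3.67, 3.88 and 3.91 in controls, 4.01, 3.88, 3.88, 3.88 and 3.73 in E1, and 3.89, 3.90, 4.27, 3.92 and 3.88 in ELF. Apart from ELF 3, which gave the 4.27, the ELF arrays lay among the others. The difference was 0.06 for E1 against control (SE 0.091, limma adjusted p 0.833) and 0.16 for ELF against control (SE 0.091, adjusted p 0.297).

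Prkar1b, a regulatory subunit of PKA enriched in brain, read 2.52, 2.78, 2.60, 2.81 and 2.99 in controls and 3.10, 2.96, 3.04, 2.90 and 3.17 in E1. In ELF it read 3.00, 2.62, 3.24, 3.04 and 2.99. Control 5 lay among the E1 arrays, and ELF 2 lay among the controls. The E1 difference from control was 0.29 (SE 0.12, 95% interval 0.04 to 0.55, limma adjusted p 0.301), and on slide 2, where control 5 was hybridised beside 3 E1 arrays, it was 0.04. The gene's second probe differed by -0.02 (SE 0.11, adjusted p 0.969 over all probes).

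Pde4d read -1.87, -1.92, -2.24, -2.43 and -2.24 in controls, -1.87, -2.06, -2.02, -2.11 and -2.00 in E1, and -2.36, -2.80, -2.20, -2.35 and -2.37 in ELF. Every ELF array lay below every E1 array, while ELF and control overlapped. ELF differed from E1 by -0.40 (SE 0.13, 95% interval -0.68 to -0.13, limma adjusted p 0.373) and from control by -0.28 (SE 0.13, adjusted p 0.209). Without ELF 2, the lowest array, these were -0.31 (SE 0.11, adjusted p 0.454) and -0.18 (SE 0.11, adjusted p 0.406). On slide 3 alone ELF differed from E1 by -0.22. Non-overlap between ELF and E1 was found for 2 of 45 members (4.44%) and for 2.04% of all genes.

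The list held 101 probes, of which 96 passed the filter, and each was also tested on its own, a choice made after seeing the data. Between ELF and control 1 of the 96 was called (2.36% of all probes), a probe of Pde4b on chr4:101947595-101947654 (mm7) placed on the cDNA AK171700, 34.4 kb from the brightest probe of that gene. It read -1.10, -1.29, -1.24, -1.35 and -1.30 in controls, -1.34, -1.37, -1.12, -1.41 and -1.54 in E1, and -1.70, -1.72, -2.07, -1.96 and -1.46 in ELF. It fell by 0.53 between control and ELF (SE 0.11, limma adjusted p 0.0382 over all probes), and no ELF array overlapped a control. The other 3 probes of Pde4b differed by -0.06, 0.02 and 0.17, so that the gene's probes did not move together. Of the 4 Pde4d probes, all differed in the same direction between ELF and control, by -0.28, -0.40, -0.75 and -0.09. Without ELF 2 these were -0.18, -0.16, -0.59 and -0.07. All probes shared a sign in 11 of the 26 members with several probes, and signs were mixed in 15. The -0.75 (SE 0.19, limma adjusted p 0.0509) came from the probe 4.89 kb from the brightest. For E1 against control (0.104% of all probes called) and for ELF against E1 (0.0052%) 0 of the 96 member probes were called, with 7 and 14 at an unadjusted limma p under 0.05 (13.1% and 9.99% of all probes). In ELF against control 15 of the 96 had such a p, and 23.3% of all probes.

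**Figure D2:**
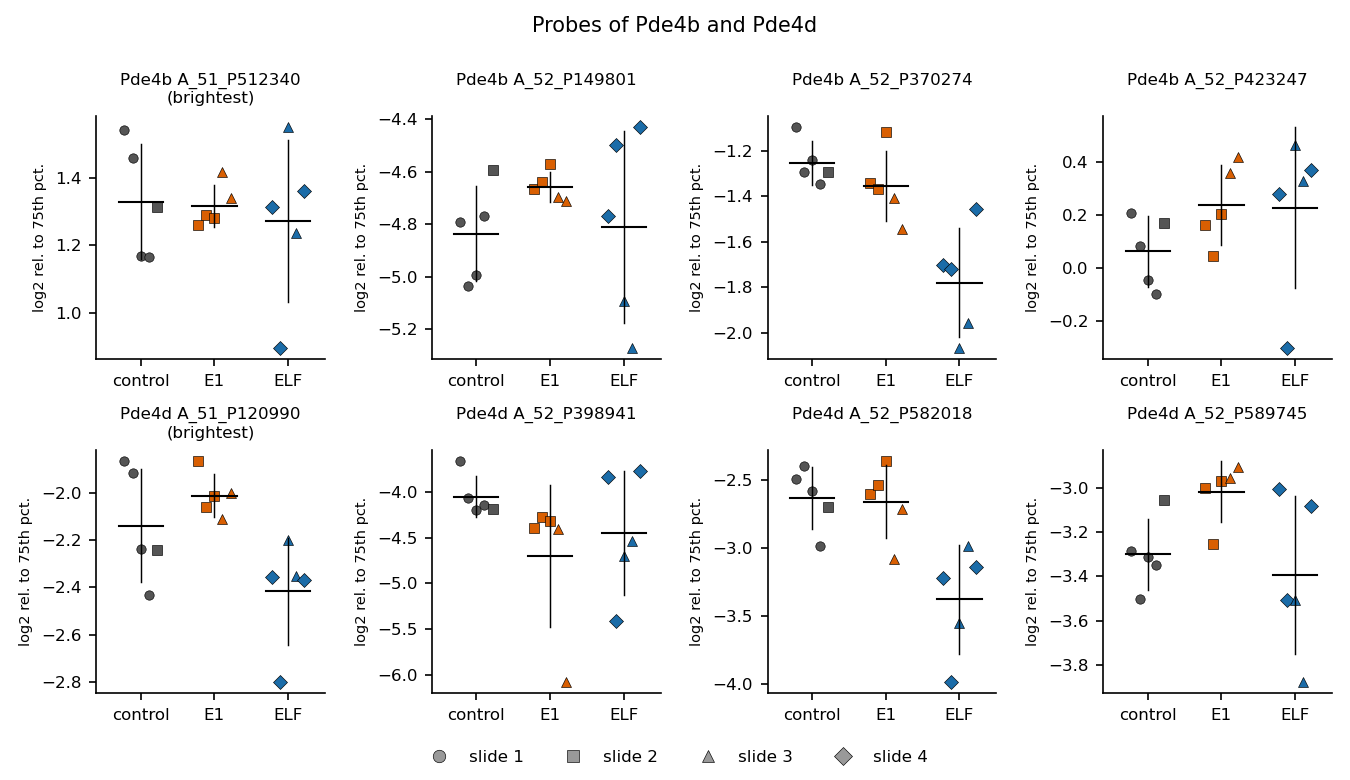
The log2 level relative to the 75th percentile on each array is plotted on the y axis for the 4 probes of Pde4b (top) and the 4 of Pde4d (bottom), by group, with horizontal lines for means, vertical lines for 1 SD (n = 5) and symbols for slides. For the third Pde4b probe all 5 ELF arrays, from -2.07 to -1.46, lie below all 5 controls, while the brightest Pde4b probe overlaps between the groups.

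The PKC genes encode kinases that respond to diacylglycerol, some of them with calcium, and the atypical Prkcz. Prkcb1 (now Prkcb), a calcium-dependent isoform, read 4.57, 4.67, 4.48, 4.65 and 4.57 in controls, 4.55, 4.57, 4.73, 4.59 and 4.37 in E1, and 4.42, 3.83, 4.27, 4.41 and 4.35 in ELF. All ELF arrays lay below all controls, with the highest ELF array at 4.42 and the lowest control at 4.48. This was the 1 member of 45 (2.22%) without overlap between ELF and control, and 4.74% of all genes had none. The difference was -0.33 (SE 0.11, 95% interval -0.57 to -0.10, limma adjusted p 0.104), and -0.23 (SE 0.078, adjusted p 0.146) without ELF 2. It was called with normexp background correction (-0.42, adjusted p 0.0498) and without ELF 4 (-0.37, adjusted p 0.0414), fits that called 2.45% and 19.6% of all genes. With slide as a block the fit gave -0.09 (SE 0.27, adjusted p 0.865). The second probe of the gene gave -0.16 (SE 0.21). On that probe ELF 2 read 0.32, the other ELF arrays 1.24 to 1.68 and the controls 0.95 to 1.66. Prkca and Prkcz differed from control by -0.04 and -0.06 in E1 and by -0.21 and 0.17 in ELF.

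The CREB family is represented by Creb1, the closely related Crem and Atf1, and the bZIP factors Atf2 and Atf4. Creb1, which encodes CREB, read 1.07, 1.17, 1.09, 1.00 and 1.11 in controls and 1.04, 1.20, 1.04, 1.14 and 0.95 in E1. In ELF it read 1.05, -0.17, 1.19, 1.28 and 1.09, and 4 of the 5 ELF arrays lay in or just above the range of the others. The difference was -0.02 between E1 and control (SE 0.21, 95% interval -0.47 to 0.44, limma adjusted p 0.984). Between ELF and control it was -0.20 (SE 0.21, adjusted p 0.582), and 0.06 (SE 0.074, adjusted p 0.712) without ELF 2. The 2 dimmer probes of Creb1 both read -3.66 on ELF 2, against -4.00 to -3.84 and -4.31 to -3.46 on the other ELF arrays. Crem and Atf1 differed from control by at most 0.10 in either group.

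Atf4, a factor induced at the level of translation in the integrated stress response, was the member with the smallest p between E1 and control. It read 0.51, 0.42, 0.47, 0.45 and 0.51 in controls, 0.69, 0.77, 0.71, 0.67 and 0.84 in E1, and 0.54, 0.49, 0.70, 0.73 and 0.57 in ELF. Every E1 array lay above every control, as was the case for 1 member of 45 (2.22%) and for 3.71% of all genes, counted in both directions. The difference was 0.26 (SE 0.069, 95% interval 0.12 to 0.41, limma adjusted p 0.107). A fit with the replicate number as a block and only these groups called Atf4 (limma adjusted p 0.0392). That fit was added after seeing the data and called 12.1% of all genes, and whether the numbers pair the arrays is not known. The block fitted to all 15 arrays did not call Atf4 (adjusted p 0.176). On slide 2 alone the difference was 0.21.

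Atf2 read 1.30, 1.41, 1.36, 1.24 and 1.46 in controls, 1.31, 1.58, 1.59, 1.38 and 1.57 in E1, and 1.16, 0.81, 0.95, 1.05 and 1.25 in ELF. ELF lay below all E1 arrays, and only ELF 5 reached the lowest control. The difference between ELF and E1 was -0.44 (SE 0.095, 95% interval -0.65 to -0.24, limma adjusted p 0.224), and on slide 3 alone it was -0.48. ELF differed from control by -0.31 (SE 0.095, 95% interval -0.51 to -0.11, adjusted p 0.0864), a value called in the authors' deposited normalization (-0.40, adjusted p 0.0419), in which 6.08% of all genes were called. The 3 other Atf2 probes that passed the filter differed between ELF and control by -0.11, -0.01 and 0.23, and the brightest lies on chr2:73661372-73661431 (mm7).

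CREB binds the cAMP response element, and this element was looked for in the promoters of the members. RefSeq promoters of GRCm38.p6 were matched to 31 of the 45 members, and the 250 bases before each start were searched on both strands for the palindrome TGACGTCA. It was found in 2 members (6.45%) and in 1.77% of all genes with a promoter in the table. Counted by promoter it was found in 3.77% of the 53 promoters of members and in 1.55% of all 32851, since a gene can have several starts. Of 6 Prkar1a promoters 1 held it, and of 2 Pak1 promoters 1. The shorter core, TGACG or its complement CGTCA, which the palindrome contains, was found in 13 members (41.9%) and in 19.8% of all genes. The core was counted by gene only, and a gene with more starts had more sequence searched. There were 53 promoters for 31 members and 32851 for all 27025 genes. The 3 matches of the full palindrome are shown with the motif in capitals, 5′ to 3′ on the plus strand. The motifs begin 49 bases before an annotated start of Prkar1a, and 234 and 182 bases before one of Pak1. The sequences shown hold 11 further bases on each side of the motif. They span chr11:109650889-109650918 for Prkar1a, and chr7:97788296-97788325 and chr7:97788348-97788377 for Pak1.
Prkar1a, 49 bases before this start: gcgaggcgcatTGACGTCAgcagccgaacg
Pak1, 234 bases before this start: cccgggcccaaTGACGTCAcgcggcagcca
Pak1, 182 bases before this start: tcaagtgctgaTGACGTCAtcccggcgccc
Prkar1a, a regulatory subunit of PKA, differed from control by 0.02 in E1 and -0.08 in ELF (SE 0.10, limma adjusted p 0.963 and 0.643), and by -0.0055 in ELF without ELF 2. Pak1, a kinase activated by Rac, differed by 0.16 and 0.02 (SE 0.12, adjusted p 0.601 and 0.946), and by 0.11 in ELF without ELF 2. Neither passed the test, and a match in the sequence does not show binding.

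Among the 6 MAP kinase genes, Mapk3 encodes ERK1, Map2k1 and Map2k2 encode the kinases that activate it, Rps6ka2 an S6 kinase downstream of ERK, Mapk8 JNK1 and Mapk14 p38 alpha. Mapk3 read 1.86, 1.84, 1.87, 2.04 and 2.12 in controls, 2.07, 1.98, 1.93, 1.98 and 2.34 in E1, and 2.30, 2.47, 2.34, 2.39 and 2.08 in ELF. All ELF arrays except ELF 5 lay above every control. ELF differed from control by 0.37 (SE 0.10, 95% interval 0.16 to 0.59, limma adjusted p 0.0612), the smallest adjusted p of any member in the 3 comparisons. It was called with quantile normalization (0.33, adjusted p 0.0467), without control 5 (0.42, adjusted p 0.0291) and without ELF 4 (0.35, adjusted p 0.0383), fits that called 6.56%, 8.08% and 19.6% of all genes. With slide as a block it was 0.09 (SE 0.23, adjusted p 0.843). The second Mapk3 probe, which overlaps the first on chr7 (start 122862022 against 122862017, mm7), gave 0.24 (SE 0.085, adjusted p 0.122 over all probes). ELF differed from E1 by 0.26 (SE 0.10, adjusted p 0.45). The other 5 genes of the group differed from control by between -0.19 and 0.09 in E1 and by between -0.25 and 0.05 in ELF.

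**Figure D3:**
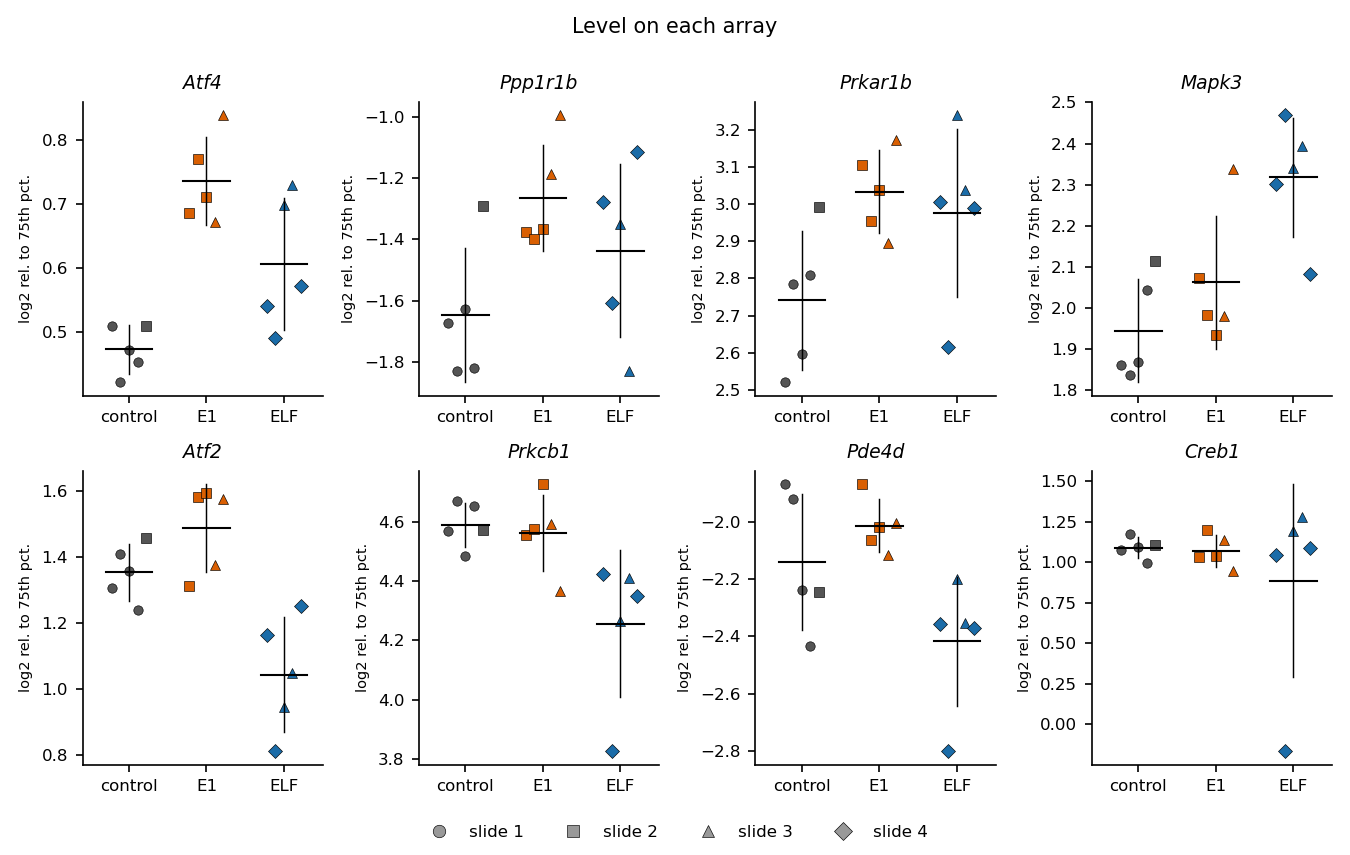
Levels of 8 genes on each array are plotted on the y axis as log2 relative to the 75th percentile, by group, with horizontal lines for means, vertical lines for 1 SD (n = 5) and symbols for slides. The E1 arrays of Atf4, from 0.67 to 0.84, lie above all controls, the ELF arrays of Prkcb1 lie below all controls, and ELF 2 is the lone low point of Creb1 at -0.17.

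The remaining genes link these routes to the cytoskeleton and to dephosphorylation. Cdk5, a neuronal kinase, its activator Cdk5r1, Pak1 and the small GTPase Rac1 differed from control by between 0.01 and 0.16 in E1 and by between -0.06 and 0.05 in ELF. Ppp3ca, the alpha catalytic subunit of calcineurin, gave recorded intensities of 58225 to 76818 and was saturated throughout. Its values relative to the percentile lay between 4.76 and 5.35 in controls, 4.71 and 5.45 in E1, and 4.41 and 5.04 in ELF. An unsaturated probe 204.6 kb away, placed on the cDNA AK036998, differed by -0.49 between E1 and control (SE 0.17, limma adjusted p 0.218 over all probes) and by -0.34 between ELF and control (SE 0.17, adjusted p 0.245). On slide 2 this probe was lower on control 5, at 0.50, than on the E1 arrays there, at 0.59 to 0.87. The other controls read 0.98 to 1.22, and the E1 arrays on slide 3 read 0.37 and 0.03. The other catalytic subunit Ppp3cb and the regulatory subunit Ppp3r1 differed from control by -0.14 and -0.10 in E1, and by -0.22 and -0.07 in ELF. Without ELF 2 the Ppp3r1 difference in ELF was -0.31 (SE 0.26, limma adjusted p 0.569). These values are from the brightest Ppp3r1 probe, and both other probes went the other way. On each of them all ELF arrays except ELF 5 lay above every control. They read -0.18 to 0.62 against -0.76 to -0.45 on 1 probe, and 0.20 to 0.85 against -0.32 to -0.03 on the other. Ppp1ca and Ppp1cb, catalytic subunits of protein phosphatase 1, differed by 0.22 and 0.07 in E1 and by 0.29 and -0.02 in ELF.

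Ppp1r1b encodes DARPP-32, an inhibitor of protein phosphatase 1 that PKA activates and that is best known from the striatum. It read -1.67, -1.83, -1.63, -1.82 and -1.29 in controls, -1.38, -1.40, -1.37, -1.19 and -0.99 in E1, and -1.28, -1.61, -1.35, -1.83 and -1.12 in ELF. Control 5 lay above 3 of the 5 E1 arrays, and the other controls lay below all of them. The E1 difference from control was 0.38 (SE 0.14, 95% interval 0.08 to 0.69, limma adjusted p 0.264). In the fit of these groups alone with the replicate block it was called (adjusted p 0.0284), while the block over all 15 arrays gave 0.139, and on slide 2 alone the difference was -0.09. Of 8 striatal markers, all well above background on all arrays, 6 were higher in E1 than in control, 0 were called by limma and 2 had an unadjusted p under 0.05. Their summed level ran from 4.15 to 4.53 in controls, from 4.25 to 5.12 in E1 and from 3.86 to 6.34 in ELF, and its part in the Ppp1r1b difference was not tested.

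Akt1, a survival kinase, differed from control by 0.04 in E1 and by 0.10 in ELF (SE 0.071, limma adjusted p 0.858 and 0.392). Gsk3b, a kinase that Akt inhibits, was singled out after its values were seen, as the only member whose difference exceeded 0.5 in size. It read 0.42, 0.59, 0.48, 0.23 and 0.28 in controls, 0.03, 0.23, 0.16, 0.26 and 0.39 in E1, and -0.08, -1.41, 0.33, 0.06 and 0.09 in ELF. ELF differed from control by -0.60 (SE 0.25, 95% interval -1.13 to -0.07, limma adjusted p 0.17), and by -0.30 (SE 0.10, adjusted p 0.149) without ELF 2.

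The array ELF 2 accounted for much of the spread within the ELF group. The members' median SD was 0.14 in controls, 0.13 in E1 and 0.22 in ELF, and 0.15 in ELF without ELF 2. On ELF 2, 9 members lay more than 0.5 from the mean of the other 4 ELF arrays. The lower ones were Gsk3b, Creb1, Prkar2a, Adcy1 and Prkcb1, by -1.51 to -0.54, and the higher ones Ppp3r1, Prkar2b, Camk2d and Mapk8, by 0.57 to 1.17. In 26 members ELF 2 lay outside all other 14 arrays, 12 times above and 14 times below, a share of 57.8% beside 57.0% of all genes. Over all genes 45.1% lay more than 0.5 from the rest of the group on ELF 2, and 41.4% on ELF 4. For 8 of these 9 members 17 other probes passed the filter. On ELF 2, 6 of them lay outside the other 4 ELF arrays on the same side as the brightest probe, 7 on the opposite side and 4 in between. A probe of Gsk3b lay below, at -1.76 against -1.05 to -0.97, and so did 1 of Prkcb1, at 0.32 against 1.24 to 1.68. Both other Ppp3r1 probes were highest on ELF 2, as was the brightest. The 3 other Adcy1 probes read -1.64, -1.88 and -1.98, each the highest of the ELF arrays, while the brightest was the lowest. On these 3 probes ELF 1 and ELF 5, on the same slide as ELF 2, read -2.37 to -1.94. ELF 3 and ELF 4, on slide 3, read -3.98 to -2.61. Prkar2a had 1 further probe below, at -4.19 against -2.94 to -2.44, and 1 above, at -2.99 against -4.02 to -3.11. The latter split by slide too, with ELF 1 and ELF 5 at -3.24 and -3.11 and ELF 3 and ELF 4 at -4.02 and -3.87. The part of the slide was not tested. Without ELF 2, 0 of 45 members were called by limma between ELF and control, with 8 at an unadjusted p under 0.05 (7 with it). The 8 include the saturated Camk2a, so 7 can be read. Prkar1b and Atf4 entered this set, and Camkk2 and Pde4d left it. In that fit 0.8% of all genes were called and 19.1% had such a p. For the 42 members whose probes were not saturated throughout a group, the ELF difference from control then lay between -0.31 and 0.34. Leaving out ELF 2 turned its sign in 10 of them and either did so or moved it by over 1.5 times in 24, as for Prkar2a from -0.34 to -0.12, Camk2d from 0.16 to 0.04 and Adcy1 from -0.12 to 0.065.

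**Figure D4:**
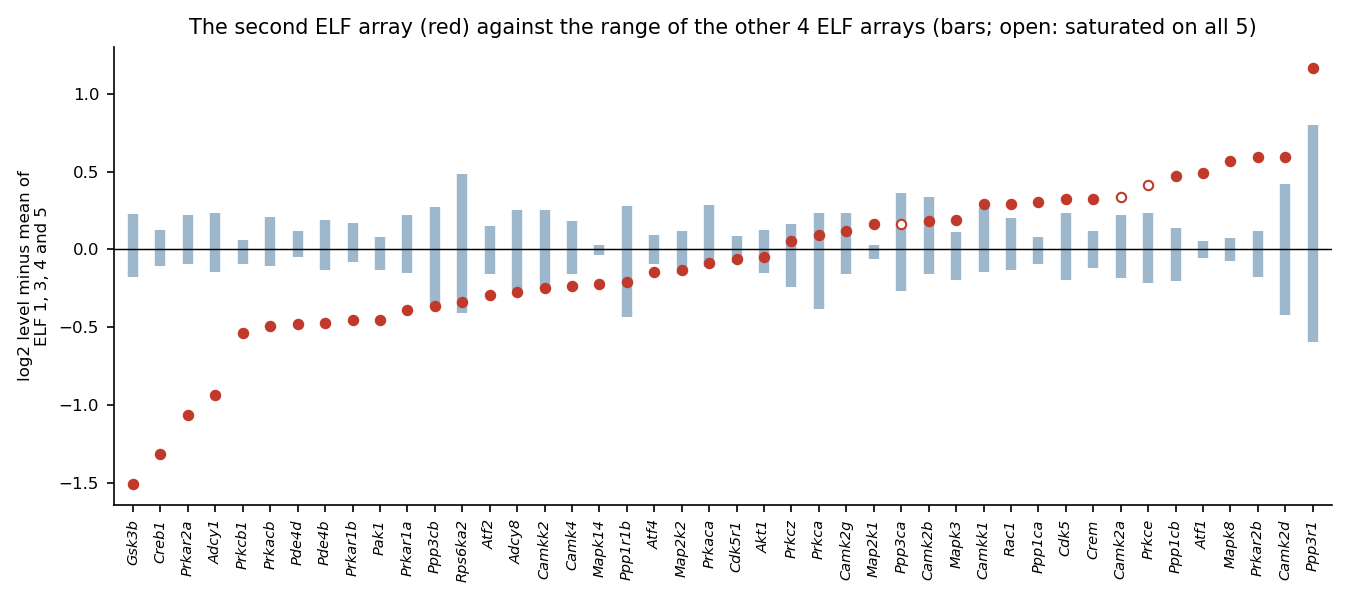
For each of 44 genes the y axis gives the log2 level on ELF 2 minus the mean of the other 4 ELF arrays (red), beside the range of those 4 arrays about their mean (bars); open points mark probes saturated on all 5 ELF arrays. Gsk3b, Creb1, Prkar2a and Adcy1 lie furthest below and Ppp3r1 furthest above.

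Of 146 further genes listed for the same pathways, 134 were measured. Between E1 and control limma called 0 of them and 17 had an unadjusted p under 0.05 (12.7%, with 13.1% of all genes). Between ELF and E1 the numbers were 0 and 10 (7.46%, with 9.64% of all genes). Between ELF and control they were 1 (0.746%, with 2.1% of all genes called) and 22 (16.4%, with 23% of all genes). The gene called was Pkib, an inhibitor of PKA. It read -1.39, -1.27, -1.34, -1.48 and -1.26 in controls, -1.21, -1.03, -1.24, -1.13 and -1.24 in E1, and -1.07, -0.71, -0.80, -0.98 and -1.14 in ELF. It rose by 0.41 between control and ELF (SE 0.091, limma adjusted p 0.0418), and no ELF array overlapped a control, as for 4.74% of all genes. The median difference of the 134 genes was 0.04, 0.01 and -0.01 for E1 against control, ELF against control and ELF against E1.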

How the data were processed

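The labels describe 5 biological replicates per group. The scanner software was Agilent Feature Extraction 9.5.3.1, per the file headers, and its processed intensity, already background-subtracted, was used. Both that software and limma appear in the submitters' processing notes. The table of log2 values deposited by the authors followed log2 mean intensity on every array (Pearson's r across spots at least 0.996), so scale and direction were clear. Its between-array normalization is unknown here, and its column medians ran from 8.77 to 9.00. It served as an alternative. Slides were read from the array identifiers.

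Of 45018 spots, 1639 control spots and outlier spots were left out. Log2 intensities were set against the array's 75th percentile, and spots of a probe were averaged to 41174 probes. Probes well above background on at least 5 of 15 arrays were kept (38457), and the brightest per gene name gave 26117 genes. limma 3.58.1 in R 4.3.3 was fitted to all arrays without covariates, with Benjamini-Hochberg adjustment over all genes, and was tested on simulated data. The number of arrays limits the precision. Probe positions are in mm7, per the file headers; exon annotation was not used here, and symbols of 41 members were matched by accession to RefSeq.

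The members and lists were chosen with earlier results of these data known. Of the 45 members, 1 is counted in the totals but not reported here on its own. Full values are given for the 3 members with the smallest p in each comparison and for Creb1, Camk2b, Prkaca and Ppp1r1b, and ranges for the saturated Camk2a and Ppp3ca. Alternatives covered normalization, background, filters, slide and replicate blocks, probe choice and leaving out each array. Replicate numbers come from the sample titles. Deviations of same-numbered arrays correlated by 0.14 to 0.30 for E1 and control, which was taken as pairing, by -0.43 to 0.31 for ELF and control and by -0.40 to 0.17 for ELF and E1, which were not.

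Of 45 markers of neurons, hippocampal neurons, striatum, choroid plexus, astrocytes, oligodendrocytes, microglia and meninges, limma called 0 in each comparison. An unadjusted p under 0.05 was reached by 5, 14 and 9 of the 45 for E1 against control, ELF against control and ELF against E1. Of all genes 13.1%, 23% and 9.64% reached it, in the same order. Of 9 thalamic and habenular markers, 1 rose between control and E1. The 6 measured choroid plexus markers summed to between 34.9 and 54.3 in controls, 27.0 and 46.6 in E1, and 26.0 and 30.7 in ELF apart from ELF 3, at 2.52; 5 of the 6 had an unadjusted limma p under 0.05 for ELF against control, with a median difference of -1.21.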

Additional observations from a re-analysis of the deposited data

Results flagged for a closer look

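In each gene and group of 5 arrays, the highest or lowest array was compared with its neighbour, and a gap above 0.71 of the group's range was taken as standing apart. Of 135 such groups 14 did, and chance gives about 1 in 20. Of these, 8 were due to ELF 2. That array was lowest for Gsk3b (-1.41), Creb1 (-0.17), Prkar2a (-1.69), Prkcb1 (3.83), Pde4d (-2.80) and Mapk14 (2.23), and highest for Atf1 (0.15) and Mapk8 (2.17). ELF 3 stood apart for Prkaca (4.27). Among controls, control 4 did for Camk2b (5.07) and Atf1 (-0.56), control 5 for Prkar2b (2.51) and control 2 for Prkcz (3.94). In E1, the second array did for Cdk5 (1.29). Causes were not tested.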

How the results depend on the processing

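The number of members called differed from 0 under few settings. Between ELF and control it was 1 with quantile normalization, normexp background correction or the authors' value table, and ran from 0 to 2 when single arrays were left out (1 without control 5, in a fit that called 8.08% of all genes, and 2 without ELF 4, with 19.6%). Between ELF and E1 it was 3 with slide as a fixed block, namely Rps6ka2 (-0.73, limma adjusted p 0.0282), Prkca (-0.53, 0.0494) and the saturated Camk2a, in a fit that called 19.3% of all genes. These differences are those of slide 3 alone. Rps6ka2 read -1.66 and -1.72 on ELF 3 and ELF 4 there, and -1.12 to -0.95 in E1. Off that slide, ELF 1, ELF 2 and ELF 5 read -1.04, -1.65 and -0.83. Between E1 and control the number of members called was 2 with the replicate block and only these groups. The replicate block on all arrays called 0 members and 12, 215 and 0 genes for E1 against control, ELF against control and ELF against E1. The block changed no other call. For the last 2 comparisons the numbers were not taken as pairing the samples, and 1 of 5 numbers correlated best with its own. With the median as the shift the members' median difference between ELF and control was -0.14, and that of all genes moved from 0.10 to -0.0021. The members' median less that of all genes was -0.13 in both, -0.048 without ELF 2, -0.062 with quantile normalization, and -0.042 and 0.21 with the random and fixed slide blocks.

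Signs were followed over all settings only for the 3 members with the smallest p in each comparison and for Creb1, Camk2b, Prkaca and Ppp1r1b. Some other members turned too, as with slide as a fixed block for ELF against control. There Camkk2 gave 0.38, Ppp3cb 0.31, Prkar2a 0.08 and Ppp1ca -0.20. Among the members followed, signs turned as listed next, and the cause was not tested. For E1 against control, Camk2b gave -0.030 with the median shift, -0.065 with quantile normalization, -0.021 with the authors' table, -0.13 and -0.030 with slide as a fixed and a random block, and -0.051 to 0.082 with single arrays left out. Prkcb1 gave 0.10 with normexp, 0.047 with the slide block, 0.037 with the mean of probes and -0.068 to 0.022 with arrays left out; Creb1 gave -0.050 to 0.014 with arrays left out. Pde4d gave -0.065 with the mean of probes, and with the slide block Mapk3 gave -0.12 and Ppp1r1b -0.089. For ELF against control the slide block gave 0.18 for Creb1, 0.043 for Pde4d and -0.59 for Ppp1r1b, the random slide block -0.068 for Ppp1r1b, and arrays left out -0.30 to 0.061 for Creb1. For ELF against E1, Camk2b gave 0.038 with quantile normalization; Creb1 gave 0.19 and 0.0013 and Prkar1b 0.10 and 0.052 with the fixed and random slide blocks, and with arrays left out they ran from -0.28 to 0.078 and from -0.12 to 0.034. Ranges without single arrays turned on ELF 2 for Creb1 and Prkar1b in ELF, on control 2 or E1 5 for Creb1 in E1, on E1 4 or E1 5 for Camk2b and on E1 5 for Prkcb1.

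Counts of all genes called moved far more. From 49 for E1 against control they went to 299, 429 and 244 with the median shift, quantile normalization and the authors' table, to 4 and 0 with the fixed and random slide blocks, to 32 with only the groups compared, to 3148 with the replicate block added, and from 8 to 1117 with arrays left out. From 548 for ELF against control they went to 1204, 1712, 1588, 85 and 0 in the same order, to 0 with only these groups with or without the replicate block, and from 0 to 5123 (without ELF 4) with arrays left out. From 2 for ELF against E1 they went to 0, 5, 11, 5043 and 0, to 4 with probes above background on all arrays, to 0 with normexp or only these groups with or without the replicate block, and from 0 to 11. Higher and lower calls for ELF against control were 378 and 170, but 715 and 489 with the median shift and 782 and 806 with the authors' table. For E1 against control they were 35 and 14, and 259 and 40 with the median shift. Saturation limits 7 members.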

Other observations

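Outside the rule for named genes, Atf3, a stress-induced relative of the CREB family, was picked after its values were seen as the listed pathway gene closest to the threshold. It was higher than in control by 0.54 in ELF (SE 0.13, limma adjusted p 0.0503) and by 0.53 in E1 (SE 0.13, adjusted p 0.097). Sgk, a kinase induced by stress hormones and activity, was also picked outside that rule, after its values were seen. Sgk was higher than in control by 0.54 in E1 (SE 0.11, limma adjusted p 0.0525) and by 0.21 in ELF (SE 0.11, adjusted p 0.248). Neither Sgk nor Atf3 overlapped between E1 and control, as for 3.71% of all genes. Atf3 did not overlap between ELF and control either, as for 4.74% of all genes.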
